A study of Mus musculus with 8 samples.

Results

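The basement membrane is the thin sheet of matrix on which the basal cells of the mammary gland rest, and the 32 genes described here encode its laminins, type IV collagen chains, nidogens, proteoglycans, crosslinking enzyme and linked receptors. They were taken as a list of gene symbols and matched by Entrez identifier. All 32 were found among the 27164 genes of the count tables, and all 32 passed the filter on low counts. A basement membrane is built from a polymer of laminin, which is a trimer of an alpha, a beta and a gamma chain, and from a network of type IV collagen, which is also a trimer. Nidogens and the heparan sulphate proteoglycans perlecan and agrin link these networks, and integrins and dystroglycan tie them to the cell. In the mammary gland, basal cells lie directly on this sheet and contribute much of its laminin and collagen IV.

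RNA was sequenced from basal cells sorted from the mammary glands of untreated 10-week-old C57BL/6 females that all carried the Lgr5-GFP-IRES-CreERT2 allele. In this allele the Lgr5 locus, which encodes a receptor for R-spondins, drives green fluorescent protein and an inducible Cre. Cells were split by Lgr5 and by the tetraspanin Tspan8 (T8) into 4 populations of 2 libraries each: Lgr5+ cells with high Tspan8 (Lgr5+T8hi), Lgr5- cells with high Tspan8 (Lgr5-T8hi), and the same without Tspan8 (Lgr5+T8- and Lgr5-T8-), replicate 1 from batch 1 and replicate 2 from batch 2. The labels do not say what the batch was, whether mice were pooled or whether the 2 libraries of a population are from different mice, and each p therefore reflects library-to-library spread that may be purely technical. The comparisons ask which basement membrane genes differ with either sort marker.

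Libraries held 24571300 to 38384875 gene counts, where 3 counts, the limit that a count of 0 leaves for counting error alone, equal 0.0799 to 0.12 CPM. CPM is counts per 1000000 after scaling by trimmed mean of M values (TMM). Summed levels of 12 basal markers ran from 16695 to 25134 CPM in single libraries, against 781 to 1850 for 14 luminal markers, 334 to 1276 for 11 fibroblast markers, 108 to 618 for 12 endothelial markers and 60.8 to 167 for 7 pericyte markers. All 12 basal markers had counts in each library, and RNA of other cell types was present. In such bulk samples, fewer cells of a type and less RNA per cell cannot be told apart. Differences are log2 fold changes ± standard error from edgeR's quasi-likelihood test over all 8 libraries with batch as a block, and a gene passed at an adjusted p under 0.05 over 16526 genes. The Tspan8 effect is T8hi minus T8- averaged over Lgr5 status, the Lgr5 effect is Lgr5+ minus Lgr5- averaged over Tspan8 status, and library values are given for batch 1 and then batch 2.

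Basement membrane transcripts were most abundant in the Lgr5-T8- cells. The 32 genes together took 1.45% and 1.56% of all counts in the 2 Lgr5-T8- libraries, against 0.975 to 1.03% in the other batch 1 libraries and 1.18 to 1.25% in the other batch 2 libraries. Within this sum, Col4a1 and Col4a2 had means of 2736 and 1808 CPM in Lgr5-T8- cells, against at most 1245 and 938 CPM elsewhere. For 14 of the 32 genes (43.8%) both Lgr5-T8- libraries lay above all 6 others, against 7.09% of all genes tested. These were Lama1, Lamb1, Lamb2, Lamc1, Lamc3, Col4a1 to Col4a4, Nid1, Frem1, Frem2, Egflam and Pxdn. The opposite held for 2 genes, Nid2 and Sdc1 (6.25%, against 6.87% of all genes). Lgr5+T8- cells were above the other 6 libraries for 0 genes (3.15% of all genes) and below them for 10 (31.2%, against 5.52%). Those 10 were Lama2, Lamb2, Lamc3, Col4a3, Col4a5, Nid1, Npnt, Egflam, Smoc1 and Smoc2. Lgr5+T8hi cells were above for 3 genes (9.38%, against 8.51%) and below for 5 (15.6%, against 5.63%). Lgr5-T8hi cells were above for 1 gene, Col4a6 (3.12%, against 1.49%), and below for 2, Lamb1 and Hspg2 (6.25%, against 1.25%).

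**Figure D1:**
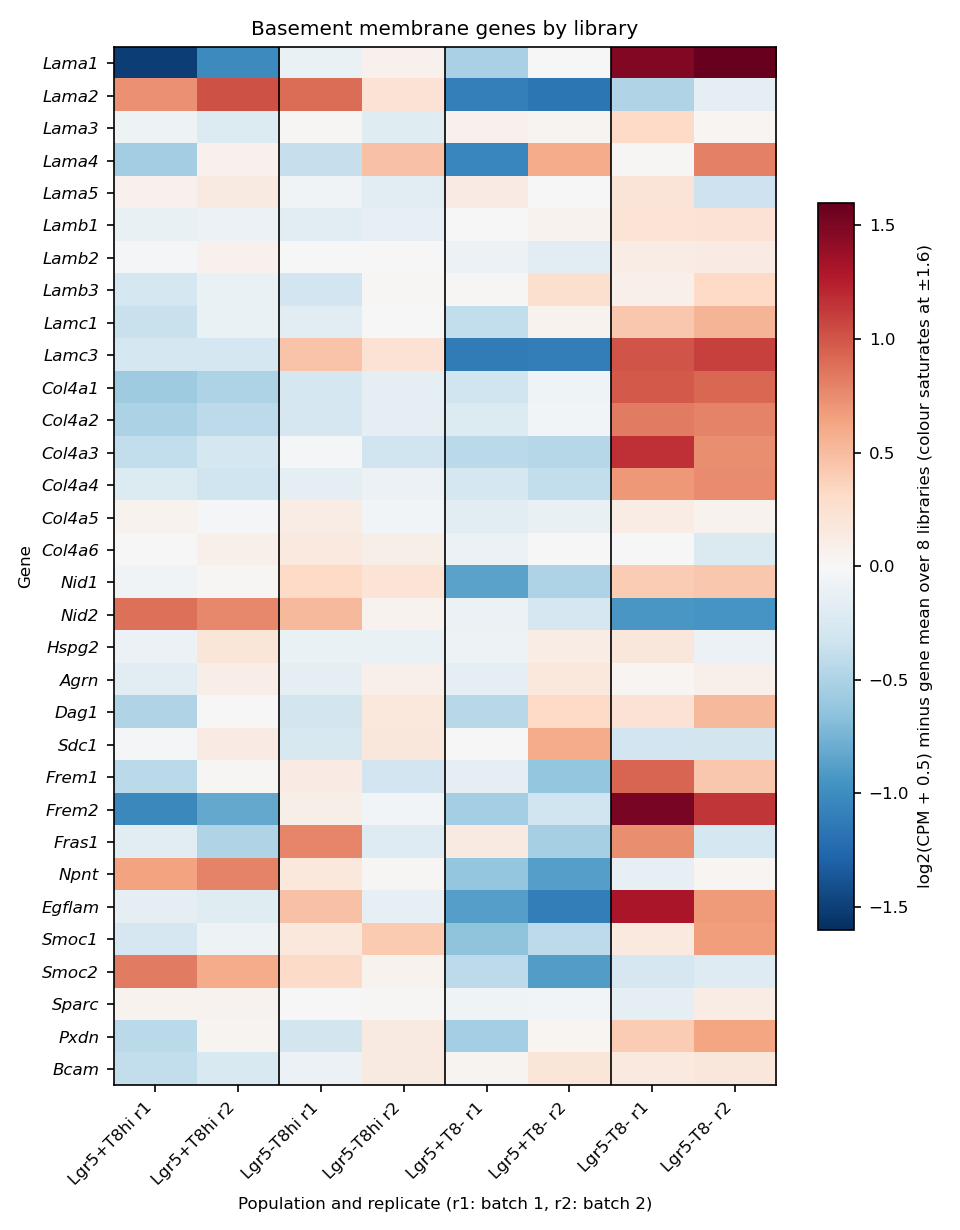
Each row is a basement membrane gene, each column a library, and colour gives log2(CPM + 0.5) minus the gene's mean over the 8 libraries. The 2 Lgr5-T8- columns on the right hold the highest values of Lama1, Lamc3, Frem2 and Col4a1 to Col4a4, while Nid2 is lowest there and Lama2 is lowest in the 2 Lgr5+T8- columns.

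With Tspan8, 5 of the 32 genes were higher and 11 lower, where 9.13% of all genes were higher and 5.52% lower. The count of 11 lower genes was 4 without Lgr5-T8hi replicate 1, 5 or 6 without another T8hi library or Lgr5+T8- replicate 2, and 9 to 12 without one of the others. The median over the 32 genes was -0.07, against -0.02 over all genes tested. With Lgr5, 2 were higher and 14 lower, where 4.23% of all genes were higher and 4.86% lower, and the median was -0.31 against 0.01. The difference between the Tspan8 effects in Lgr5+ and Lgr5- cells, which is the interaction, passed the test for 8 genes, all positive, where 2.18% of all genes were positive and 0.363% negative. Its median was 0.41, against -0.03 over all genes. Markers of other cell types had positive medians too, at 0.67 for fibroblast, 1.18 for pericyte, 1.98 for endothelial and 2.06 for immune markers. A negative interaction was called for 0 of the 32 genes, for 0 by DESeq2 and for 0 by limma-voom, and 1 was negative at an unadjusted p under 0.05. It became 1 without Lgr5-T8- replicate 1. No comparison called Lama4, Lama5, Lamb2, Col4a5, Col4a6, Hspg2, Agrn or Sparc. All 86 calls made on the 32 genes over the 7 comparisons had the same sign within batch 1 and within batch 2. Without the batch block, Nid2, Lama2, Npnt and Smoc2 (higher) and Lama1, Col4a1, Col4a2 and Frem2 (lower) passed for Tspan8, Lama1, Lamc3, Col4a1, Nid1, Frem2 and Egflam (lower) passed for Lgr5, and 0 genes passed for the interaction.

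Per length of transcript, levels of the 32 genes spanned a wide range. The mean over 8 libraries was highest for Sparc, which encodes a collagen-binding matricellular protein, at 557 RPKM (CPM per kilobase of gene length), with single libraries between 505 and 606. Next were Bcam at 239.6 and Col4a1 at 234 RPKM, whose ranges over libraries overlapped (181 to 271 and 144 to 423), then Col4a2 at 170.4 RPKM. Counting these, 8 genes had a mean of 100 RPKM or more, and 8 were under 1.5 RPKM, namely Lamc3, Egflam, Npnt, Lama2, Smoc1, Frem1, Col4a3 and Col4a4. The abundant transcripts thus included the alpha1 and alpha2 chains of type IV collagen, while the alpha3 and alpha4 chains were the least abundant, at 0.189 and 0.171 RPKM.

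Among the laminin alpha chains, Lama1 was lower with both sort markers. Lama1 (Entrez 16772, chromosome 17, 67697127 to 67822645, GRCm38.p6) encodes the alpha1 chain of the classical laminin of early epithelia. Lama1 stood at 49.0 and 68.7 CPM in Lgr5+T8hi, at 129.9 and 146 in Lgr5-T8hi, at 97.3 and 139.5 in Lgr5+T8- and at 390.3 and 431 in Lgr5-T8- cells. The 2 Lgr5-T8- libraries were the highest and the 2 Lgr5+T8hi libraries the lowest, with no overlap between either and the rest. Lama1 was lower with Tspan8 (-1.29 ± 0.08, edgeR adjusted p = 2.01e-06) and lower with Lgr5 (-1.53 ± 0.08, edgeR adjusted p = 1.12e-06). Both differences passed the test at each level of the other marker. The Tspan8 difference was -1.01 ± 0.12 in Lgr5+ and -1.57 ± 0.11 in Lgr5- cells, and the Lgr5 difference was -1.25 ± 0.12 in T8hi and -1.81 ± 0.12 in T8- cells. These calls held when any 1 library was left out.

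Lama2, the alpha2 chain of the laminin of muscle and nerve sheaths, had the opposite relation to Tspan8. Lama2 stood at 13.3 and 16.4 CPM in Lgr5+T8hi, at 14.9 and 9.29 in Lgr5-T8hi, at 3.40 and 3.23 in Lgr5+T8- and at 5.46 and 6.98 in Lgr5-T8- cells. All 4 T8hi libraries lay above all 4 T8- libraries. Lama2 was higher with Tspan8 (1.56 ± 0.17, edgeR adjusted p = 0.000385), also when any 1 library was left out, and did not pass for Lgr5 (-0.30 ± 0.17, edgeR adjusted p = 0.354).

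The alpha3 and alpha5 chains, which belong to the main epithelial laminins, carried most of the alpha chain RNA. Lama3 ranged from 557 to 812 CPM and was lower with Tspan8 (-0.24 ± 0.07, edgeR adjusted p = 0.0411). That call was lost without any library but Lgr5-T8- replicate 2 (edgeR adjusted p between 0.0524 and 0.242) and with a 1 CPM minimum (0.0531). Lama5 ranged from 627 to 913 CPM, with a Tspan8 effect of -0.01 ± 0.09 and an Lgr5 effect of 0.17 ± 0.09 (edgeR adjusted p = 0.96 and 0.308). Lama4, a chain of vessel and stromal laminins, was ordered by batch. Lama4 stood at 33.6 and 51.9 CPM in Lgr5+T8hi, at 38.3 and 68.6 in Lgr5-T8hi, at 23.8 and 75.0 in Lgr5+T8- and at 50.3 and 86.7 in Lgr5-T8- cells. All 4 batch 2 libraries lay above all 4 of batch 1, and neither effect passed the test (-0.21 ± 0.16 and -0.44 ± 0.16, edgeR adjusted p = 0.475 and 0.183).

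Of the beta chains, Lamb3, which pairs with Lama3, was lower with Tspan8 (-0.34 ± 0.07, edgeR adjusted p = 0.00433), with 462 to 712 CPM over the libraries. Lamb1, the beta chain that pairs with Lama1 and Lama5, was lower with Tspan8 (-0.25 ± 0.06, edgeR adjusted p = 0.0202), with 427 to 563 CPM. The Lamb3 call was lost without Lgr5-T8hi replicate 1 (edgeR adjusted p = 0.0904), and the Lamb1 call without any library outside Lgr5-T8- (0.0626 to 0.211). Lamb2, the beta2 chain, ranged from 241 to 298 CPM and passed for neither marker (0.01 ± 0.07 and -0.12 ± 0.07, edgeR adjusted p = 0.971 and 0.313).

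The gamma chains differed more. Lamc1 (Entrez 226519, chromosome 1, 153218922 to 153332786) is the gamma chain shared by most laminins, those of Lama1 and Lama5 among them. Lamc1 stood at 476 and 564 CPM in Lgr5+T8hi, at 542 and 611 in Lgr5-T8hi, at 463 and 632 in Lgr5+T8- and at 824 and 887 in Lgr5-T8- cells. The 2 Lgr5-T8- libraries lay above the rest, and the other populations overlapped. Lamc1 was lower with Lgr5 (-0.40 ± 0.07, edgeR adjusted p = 0.00488) and lower with Tspan8 (-0.32 ± 0.07, edgeR adjusted p = 0.0123). The Tspan8 call was lost without Lgr5+T8- replicate 2 or any of the 4 T8hi libraries (edgeR adjusted p between 0.0669 and 0.102).

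Lamc3, a rarer gamma chain, showed 4 separate levels. Lamc3 stood at 5.62 and 5.63 CPM in Lgr5+T8hi, at 9.69 and 8.28 in Lgr5-T8hi, at 2.93 and 2.95 in Lgr5+T8- and at 14.5 and 15.5 in Lgr5-T8- cells. No 2 populations overlapped, with Lgr5+T8- the lowest and Lgr5-T8- the highest. Lamc3 was lower with Lgr5 (-1.51 ± 0.11, edgeR adjusted p = 6.47e-06). Its Tspan8 effect averaged 0.10 ± 0.11 (edgeR adjusted p = 0.609) and was 0.94 ± 0.17 in Lgr5+ and -0.74 ± 0.14 in Lgr5- cells (edgeR adjusted p = 0.00328 and 0.00655). The second of these was lost without 1 library, at an edgeR adjusted p of 0.173 without Lgr5-T8hi replicate 2. The interaction of 1.67 ± 0.22 (edgeR adjusted p = 0.00239) held when any 1 library was left out.

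Shares within the alpha and beta chains were compared next, as a description of 2 libraries per population. Lama1 made up 22.4 ± 3.91% (SD, n = 2) of the summed alpha chain RPKM in Lgr5-T8- cells, against 4.23 ± 0.937% in Lgr5+T8hi, 9.82 ± 1.18% in Lgr5-T8hi and 7.8 ± 1.8% in Lgr5+T8- cells. Lama5 took 34.5 ± 5.51% in Lgr5-T8- cells and 51.1 ± 0.835% in Lgr5+T8hi cells. Lama5 and Lama3 were therefore the leading alpha transcripts in each population, and Lama1 was a minor one except in Lgr5-T8- cells. Lamb1 held between 29.8 and 31.2% of the beta chains in all 4 populations, and Lamb3 between 49.3 and 54.6%.

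**Figure D2:**
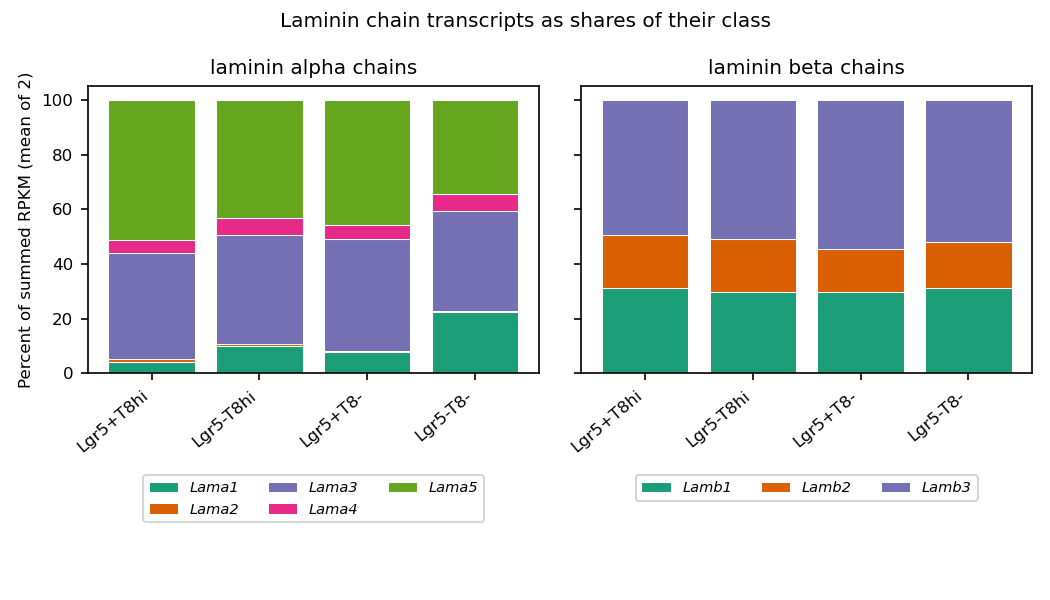
Bars give each laminin chain's percent of the summed RPKM of the alpha or beta chains in a population, as the mean of 2 libraries. The Lama1 segment is 22.4% in Lgr5-T8- cells and under 10% in the other 3 populations, while the Lamb3 segment lies between 49.3 and 54.6% in all 4.

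Type IV collagen genes lie head to head in pairs, each pair transcribed outward from a common start region. Col4a1 (Entrez 12826, chromosome 8, 11198423 to 11312889) and Col4a2 (Entrez 12827, chromosome 8, 11312805 to 11449287) encode the 2 chains of the ubiquitous collagen IV trimer. Col4a1 stood at 956 and 1009 CPM in Lgr5+T8hi, at 1167 and 1271 in Lgr5-T8hi, at 1139.6 and 1350.0 in Lgr5+T8- and at 2798 and 2674 in Lgr5-T8- cells. Col4a2 stood at 726 and 771 CPM in Lgr5+T8hi, at 851 and 920.3 in Lgr5-T8hi, at 881 and 994 in Lgr5+T8- and at 1837 and 1779.6 in Lgr5-T8- cells. For both genes the 2 Lgr5-T8- libraries were far above the other 6 and the 2 Lgr5+T8hi libraries below them. Col4a1 was lower with Tspan8 (-0.75 ± 0.07, edgeR adjusted p = 3.6e-05) and with Lgr5 (-0.73 ± 0.07, edgeR adjusted p = 8.6e-05). Col4a2 was lower with both too (-0.68 ± 0.07, edgeR adjusted p = 5.08e-05, and -0.60 ± 0.07, edgeR adjusted p = 0.000213). The ratio of Col4a1 to Col4a2 per length stayed between 1.26 and 1.48 over the 8 libraries, and it was highest in the 2 Lgr5-T8- libraries (1.48 and 1.46, against at most 1.34 elsewhere).

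Within Lgr5- cells the Tspan8 difference was -1.17 ± 0.11 for Col4a1 and -1.03 ± 0.10 for Col4a2, and within Lgr5+ cells it was -0.34 ± 0.10 and -0.32 ± 0.10 (edgeR adjusted p = 0.0645 and 0.0629). The interactions of 0.83 ± 0.15 (edgeR adjusted p = 0.0126) and 0.71 ± 0.14 (edgeR adjusted p = 0.021) passed the test. They rested on the full set of libraries. The Col4a1 interaction was lost without any T8hi library (edgeR adjusted p between 0.0552 and 0.0895) and the Col4a2 interaction without any library outside Lgr5-T8- (0.0583 to 0.141).

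Col4a3 and Col4a4, chains of the collagen IV of kidney and lung, were also highest in Lgr5-T8- cells, at very low levels. Col4a3 stood at 0.980 and 1.10 CPM in Lgr5+T8hi, at 1.40 and 1.07 in Lgr5-T8hi, at 0.945 and 0.917 in Lgr5+T8- and at 3.88 and 2.76 in Lgr5-T8- cells. Col4a4 stood at 1.01 and 0.908 CPM in Lgr5+T8hi, at 1.07 and 1.15 in Lgr5-T8hi, at 0.945 and 0.837 in Lgr5+T8- and at 2.33 and 2.46 in Lgr5-T8- cells. Counts ran from 21 to 128 per library, and for both genes the Lgr5-T8- libraries were the 2 highest. Both were lower with Lgr5 (-1.04 ± 0.20 and -0.81 ± 0.20, edgeR adjusted p = 0.00661 and 0.0257) and did not pass for Tspan8 (edgeR adjusted p = 0.0574 and 0.127). The Lgr5 call of Col4a3 was lost without Lgr5+T8hi replicate 1 (0.0728). That of Col4a4 was lost without any library outside Lgr5-T8- (0.0679 to 0.105) and with DESeq2 (adjusted p = 0.118).

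Col4a5 and Col4a6, the pair on the X chromosome, which form a trimer found under many epithelia, were nearly level. Col4a5 stood at 584 and 553 CPM in Lgr5+T8hi, at 612 and 543 in Lgr5-T8hi, at 498 and 516 in Lgr5+T8- and at 611 and 583 in Lgr5-T8- cells. Col4a6 stood at 454 and 484 CPM in Lgr5+T8hi, at 509.9 and 488 in Lgr5-T8hi, at 426 and 459 in Lgr5+T8- and at 453 and 387 in Lgr5-T8- cells. The populations overlapped for Col4a5 except that the Lgr5+T8- libraries were lowest. For Col4a6, which spanned 387 to 509.9 CPM, both Lgr5-T8hi libraries lay above the other 6. The ratio of Col4a5 to Col4a6 per length was highest in the 2 Lgr5-T8- libraries (1.38 and 1.54, against at most 1.32 elsewhere). No comparison passed for either gene, with Tspan8 effects of 0.06 ± 0.07 and 0.17 ± 0.08 and Lgr5 effects of -0.13 ± 0.07 and -0.01 ± 0.08 (edgeR adjusted p between 0.174 and 0.978). By the RefSeq starts of the promoter table (GENCODE for Col4a3), the Col4a1 and Col4a2 transcripts overlap by 22 bases, while 71 bases lie between the starts of Col4a3 and Col4a4 and 1342 between those of Col4a5 and Col4a6. Reads from the 22 shared bases cannot be assigned without strand, and exon bases shared with another gene made up 0.295% of Col4a1 and 0.982% of Col4a2.

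**Figure D3:**
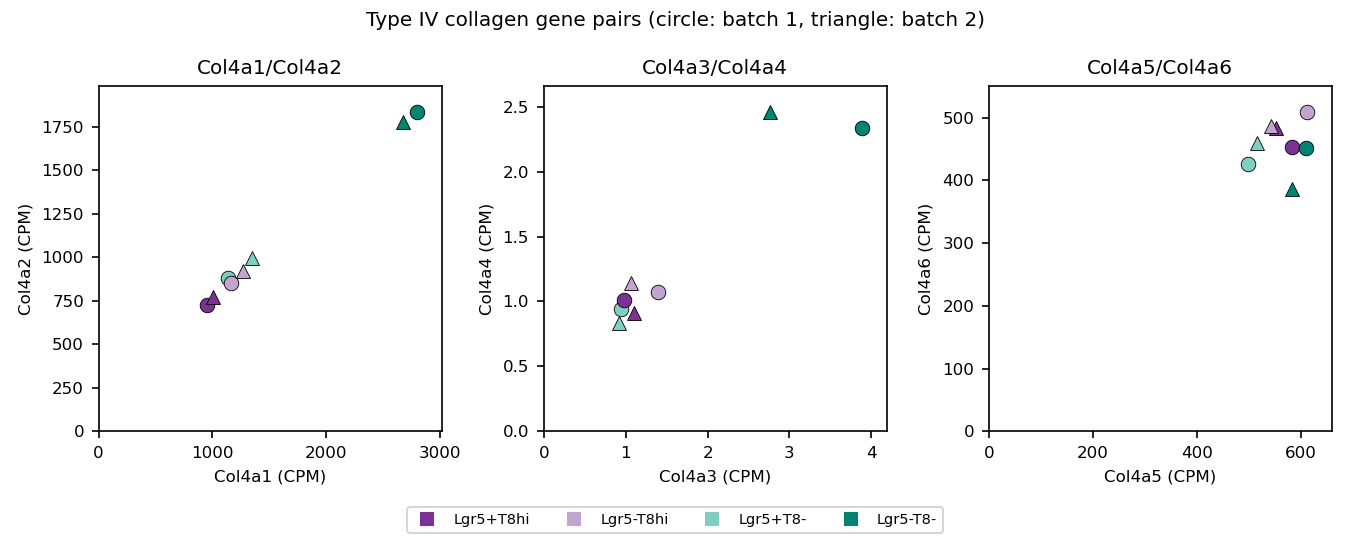
Each panel plots the CPM of 1 gene of a type IV collagen pair against its neighbour, 1 point per library. The 2 Lgr5-T8- points stand apart at the upper right for Col4a1/Col4a2 and for Col4a3/Col4a4, and for Col4a5/Col4a6 the 8 points lie between 387 and 509.9 CPM of Col4a6.

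Pxdn encodes peroxidasin, the enzyme that forms the sulfilimine crosslinks of collagen IV. Pxdn stood at 97.3 and 136 CPM in Lgr5+T8hi, at 108 and 145 in Lgr5-T8hi, at 90.6 and 135 in Lgr5+T8- and at 174 and 204 in Lgr5-T8- cells. The 2 Lgr5-T8- libraries were the highest, and the other 6 were ordered by batch, with all 3 batch 2 libraries above all 3 of batch 1. Pxdn was lower with Lgr5 (-0.45 ± 0.07, edgeR adjusted p = 0.00177), also with any 1 library left out. Its Tspan8 effect was -0.27 ± 0.07 (edgeR adjusted p = 0.0234) and was lost without any library but Lgr5+T8- replicate 1 or Lgr5-T8- replicate 2 (edgeR adjusted p between 0.0662 and 0.173).

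Promoter sequence is shown for genes of unlike patterns, so that their start regions can be read side by side. RefSeq promoter windows of 250 bases before an annotated start (GRCm38.p6) were found for 22 of the 32 genes, as 28 windows. RefSeq gene spans can reach past that start through other transcript models, so each line gives the longest stretch of a window outside the gene's whole RefSeq span and free of GENCODE exons, 5′ to 3′ on the gene's strand. Nid1 was highest in Lgr5-T8- and lowest in Lgr5+T8- cells, Npnt was highest in Lgr5+T8hi and lowest in Lgr5+T8- cells, Sdc1 was lowest in Lgr5-T8- cells, and Col4a6 and Lama5 passed no test. Capitals mark matches to CCAAT, to GGGCGG (the GC box), to TATAAA or to TGANTCA (the AP-1 motif), on either strand.
Nid1, chr13:13437352-13437550, plus strand: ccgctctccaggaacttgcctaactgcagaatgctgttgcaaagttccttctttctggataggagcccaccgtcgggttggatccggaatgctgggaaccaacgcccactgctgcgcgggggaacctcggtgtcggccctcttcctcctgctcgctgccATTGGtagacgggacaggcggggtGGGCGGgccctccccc
Npnt, chr3:132950292-132950541, minus strand: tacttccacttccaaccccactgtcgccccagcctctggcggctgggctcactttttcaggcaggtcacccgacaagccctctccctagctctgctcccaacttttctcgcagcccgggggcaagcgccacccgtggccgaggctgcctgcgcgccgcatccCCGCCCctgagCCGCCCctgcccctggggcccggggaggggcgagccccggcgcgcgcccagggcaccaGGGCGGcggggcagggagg
Sdc1, chr12:8771182-8771322, plus strand: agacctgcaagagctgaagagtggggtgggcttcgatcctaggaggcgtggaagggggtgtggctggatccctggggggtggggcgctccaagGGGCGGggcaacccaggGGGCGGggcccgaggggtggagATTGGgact
Col4a6, chrX:141474096-141474326, minus strand: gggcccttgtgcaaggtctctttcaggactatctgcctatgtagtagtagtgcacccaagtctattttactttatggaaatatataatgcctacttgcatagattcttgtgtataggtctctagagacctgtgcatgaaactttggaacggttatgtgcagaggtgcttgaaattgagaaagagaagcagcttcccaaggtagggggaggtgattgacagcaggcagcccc
Lama5, chr2:180225905-180226109, minus strand: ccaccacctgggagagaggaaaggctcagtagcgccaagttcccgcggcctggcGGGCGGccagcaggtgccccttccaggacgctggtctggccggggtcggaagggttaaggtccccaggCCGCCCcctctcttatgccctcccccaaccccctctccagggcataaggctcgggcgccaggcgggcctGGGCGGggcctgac

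None of the marked matches overlapped another. Nid1 held 1 CCAAT in reverse and 1 GC box, beginning 91 and 67 bases before the annotated start, and Sdc1 held 1 CCAAT in reverse and 2 GC boxes. Npnt and Lama5 held 3 GC boxes each, and the Col4a6 stretch held 0 of the 4 motifs. CCAAT was present in 12 of the 28 full member windows (42.9%, against 33.8% of 32851 windows of all genes), GGGCGG in 14 (50.0%, against 32.7%), TATAAA in 0 (against 12.4%) and TGANTCA in 2 (7.14%, against 6.75%). These matches describe letters only.

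**Figure D4:**
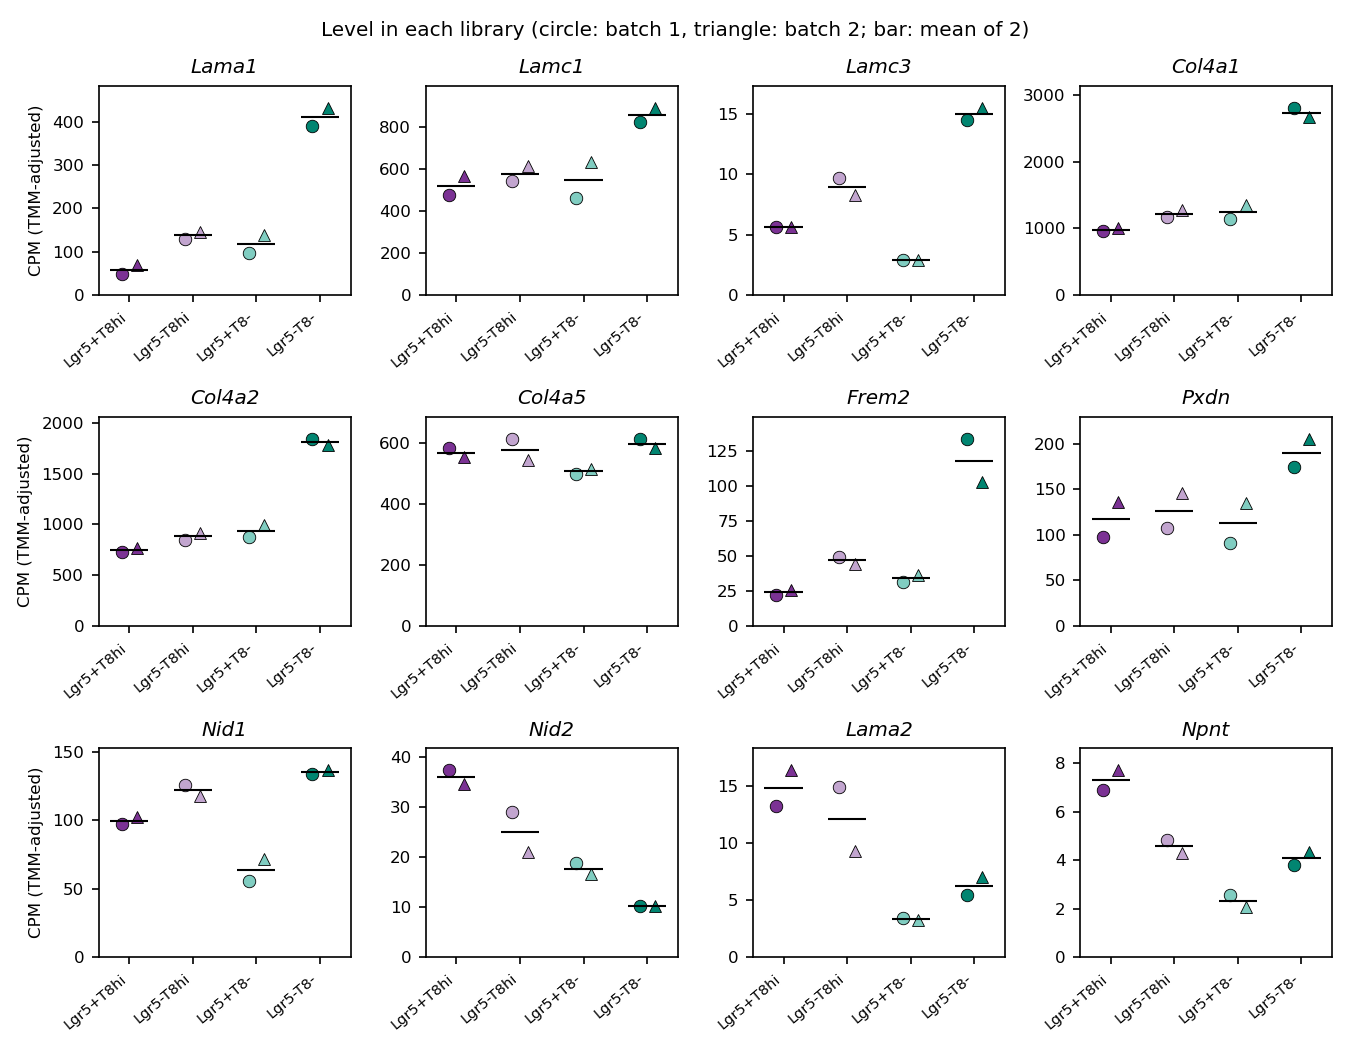
Each panel gives the CPM of 1 gene in each library, with circles for batch 1, triangles for batch 2 and a bar at the mean of 2. Lama1, Lamc1, Lamc3, Col4a1, Col4a2, Frem2 and Pxdn peak in Lgr5-T8- cells, Col4a5 is nearly level, and Nid2, Lama2 and Npnt have their highest mean in Lgr5+T8hi cells.

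The 2 nidogens, which bridge laminin and collagen IV, went opposite ways with Lgr5. Nid1 stood at 97.1 and 102 CPM in Lgr5+T8hi, at 126 and 118 in Lgr5-T8hi, at 55.3 and 71.4 in Lgr5+T8- and at 134 and 136 in Lgr5-T8- cells. Nid2 stood at 37.3 and 34.6 CPM in Lgr5+T8hi, at 29.0 and 20.9 in Lgr5-T8hi, at 18.8 and 16.6 in Lgr5+T8- and at 10.3 and 10.2 in Lgr5-T8- cells. Nid1 was highest in Lgr5-T8- and lowest in Lgr5+T8- cells, and Nid2 was lowest in Lgr5-T8- and highest in Lgr5+T8hi cells. Nid1 was lower with Lgr5 (-0.70 ± 0.08, edgeR adjusted p = 0.000159), while Nid2 was higher (0.66 ± 0.09, edgeR adjusted p = 0.000436). Nid2 was also higher with Tspan8, by 1.02 ± 0.12 in Lgr5+ and 1.28 ± 0.12 in Lgr5- cells. The Tspan8 effect on Nid1 was 0.66 ± 0.11 in Lgr5+ (edgeR adjusted p = 0.00253) and -0.15 ± 0.11 in Lgr5- cells (edgeR adjusted p = 0.529), with an interaction of 0.81 ± 0.16 (edgeR adjusted p = 0.0198). Averaged over Lgr5 status, Nid1 was higher with Tspan8 (0.25 ± 0.08, edgeR adjusted p = 0.0477), a call lost without any 1 library except Lgr5-T8hi replicate 2, Lgr5+T8- replicate 2 and Lgr5-T8- replicate 1 (edgeR adjusted p between 0.071 and 0.217) and by limma-voom (adjusted p = 0.0501). The interaction was lost without either Lgr5+T8hi library or Lgr5-T8hi replicate 2 (edgeR adjusted p between 0.0874 and 0.111). Of the exon bases of Nid2, 8.45% are shared with another gene, the largest share among the 32 genes. The next largest shares were 6.27% for Lamc3 and 5.65% for Col4a3, both genes of low level. The part of reads from shared bases in the differences of these genes was not tested.

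The proteoglycans were abundant and mostly level. Hspg2, which encodes perlecan, ranged from 650.4 to 799 CPM, with effects of -0.06 ± 0.09 for Tspan8 and 0.07 ± 0.09 for Lgr5. Agrn, which encodes agrin, ranged from 690.0 to 879 CPM, with effects of -0.08 ± 0.07 and -0.03 ± 0.07, and neither gene passed in any comparison. Sdc1, the transmembrane proteoglycan syndecan-1, differed. Sdc1 stood at 439 and 489 CPM in Lgr5+T8hi, at 373 and 507 in Lgr5-T8hi, at 445 and 676 in Lgr5+T8- and at 362 and 364 in Lgr5-T8- cells. Both Lgr5-T8- libraries lay below the rest, and the highest value was Lgr5+T8- replicate 2. Sdc1 was higher with Lgr5 (0.34 ± 0.10, edgeR adjusted p = 0.0471). That call was lost without any library but Lgr5+T8- replicate 1 or Lgr5-T8- replicate 1 (edgeR adjusted p between 0.0598 and 0.261), and the size without Lgr5+T8- replicate 2 was 0.24. It was also lost with RLE scaling (0.0577) and with a 1 CPM minimum (0.0612).

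Of the laminin receptors, Dag1, which encodes dystroglycan, had 375 to 754 CPM, with the batch 2 library above the batch 1 library in each population. It was lower with Tspan8 (-0.31 ± 0.08, edgeR adjusted p = 0.021) and with Lgr5 (-0.31 ± 0.08, edgeR adjusted p = 0.0318). The Tspan8 call was lost without Lgr5+T8- replicate 2 or any T8hi library (0.0979 to 0.123) and the Lgr5 call without Lgr5+T8- replicate 1 or any T8hi library (0.109 to 0.155, all edgeR adjusted p). Bcam, the Lutheran receptor for laminin alpha5, was lowest in Lgr5+T8hi cells. Bcam stood at 436 and 483 CPM in Lgr5+T8hi, at 534 and 631 in Lgr5-T8hi, at 589.9 and 653 in Lgr5+T8- and at 638 and 649 in Lgr5-T8- cells. The 2 Lgr5+T8hi libraries lay below the other 6, and the other populations overlapped. Bcam was lower with Tspan8 (-0.29 ± 0.07, edgeR adjusted p = 0.0123), a call lost without Lgr5+T8- replicate 1 or any T8hi library (edgeR adjusted p between 0.0526 and 0.206).

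Fras1, Frem1 and Frem2 encode the Fraser complex, which anchors epithelium to the dermis below the basement membrane during development. Frem2 (Entrez 242022, chromosome 3, 53513938 to 53658593) separated the populations. Frem2 stood at 22.3 and 25.7 CPM in Lgr5+T8hi, at 49.1 and 44.4 in Lgr5-T8hi, at 31.4 and 36.6 in Lgr5+T8- and at 133 and 102 in Lgr5-T8- cells. The Lgr5-T8- libraries were the highest and the Lgr5+T8hi libraries the lowest, with no overlap. Frem2 was lower with Lgr5 (-1.38 ± 0.10, edgeR adjusted p = 3.16e-05) and with Tspan8 (-0.92 ± 0.10, edgeR adjusted p = 0.000221), also with any 1 library left out. Its partner Fras1 was lower with Lgr5 (-0.54 ± 0.12, edgeR adjusted p = 0.0242), without a Tspan8 effect that passed (-0.04 ± 0.12, edgeR adjusted p = 0.869). Fras1 stood at 46.8 and 38.0 CPM in Lgr5+T8hi, at 92.2 and 46.2 in Lgr5-T8hi, at 58.9 and 36.8 in Lgr5+T8- and at 89.7 and 43.9 in Lgr5-T8- cells. In batch 1 the 2 Lgr5- libraries were well above the 2 Lgr5+ libraries, and in batch 2 the gap was small (log2 differences of -0.79 and -0.26). The Fras1 call was lost without the batch 1 library of any population but Lgr5+T8hi (edgeR adjusted p between 0.0716 and 0.101). Frem1 was near the lower end, at 1.36 to 4.94 CPM, and passed only for Lgr5 within T8- cells (-1.27 ± 0.29, edgeR adjusted p = 0.0172), a call lost in 3 of 8 fits with a library left out (edgeR adjusted p between 0.0771 and 0.131 without either Lgr5+T8- library or Lgr5-T8- replicate 1).

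Npnt encodes nephronectin, a ligand of integrin alpha8 beta1, and Egflam encodes pikachurin, a ligand of dystroglycan. Npnt stood at 6.89 and 7.71 CPM in Lgr5+T8hi, at 4.83 and 4.31 in Lgr5-T8hi, at 2.58 and 2.07 in Lgr5+T8- and at 3.82 and 4.34 in Lgr5-T8- cells. Egflam stood at 4.70 and 4.54 CPM in Lgr5+T8hi, at 7.50 and 4.77 in Lgr5-T8hi, at 2.65 and 2.19 in Lgr5+T8- and at 13.8 and 8.78 in Lgr5-T8- cells. Both genes were lowest in Lgr5+T8- cells, and the highest population was Lgr5+T8hi for Npnt and Lgr5-T8- for Egflam. Npnt was higher with Tspan8 (0.90 ± 0.14, edgeR adjusted p = 0.000866), with 1.64 ± 0.20 in Lgr5+ and 0.17 ± 0.19 in Lgr5- cells. Egflam was lower with Lgr5 (-1.30 ± 0.14, edgeR adjusted p = 0.000106), and its Tspan8 effect was 0.94 ± 0.21 in Lgr5+ and -0.88 ± 0.18 in Lgr5- cells. The Egflam call in Lgr5+ cells was lost without Lgr5+T8hi replicate 2 or either Lgr5+T8- library (edgeR adjusted p between 0.0607 and 0.18), and that in Lgr5- cells without either Lgr5-T8hi library or Lgr5-T8- replicate 1 (0.0537 to 0.134). The interaction was 1.47 ± 0.28 (edgeR adjusted p = 0.0179) for Npnt and 1.82 ± 0.27 (edgeR adjusted p = 0.00503) for Egflam. The second held with any 1 library left out. The first was lost without either Lgr5+T8hi library, Lgr5-T8hi replicate 2 or Lgr5+T8- replicate 2 (edgeR adjusted p between 0.0568 and 0.118).

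In the SPARC family, Sparc itself was level at 1161 to 1392 CPM, and its calcium-binding relatives Smoc1 and Smoc2 were not. Smoc2 stood at 17.2 and 14.6 CPM in Lgr5+T8hi, at 11.8 and 9.83 in Lgr5-T8hi, at 6.96 and 4.86 in Lgr5+T8- and at 7.73 and 8.09 in Lgr5-T8- cells. Smoc1 stood at 1.33 and 1.59 CPM in Lgr5+T8hi, at 1.98 and 2.45 in Lgr5-T8hi, at 0.913 and 1.16 in Lgr5+T8- and at 1.97 and 3.01 in Lgr5-T8- cells. Smoc2 was highest in Lgr5+T8hi cells and lowest in Lgr5+T8- cells, and Smoc1 was lowest in Lgr5+T8- cells. Smoc2 was higher with Tspan8 (0.93 ± 0.11, edgeR adjusted p = 0.000116) and Smoc1 was lower with Lgr5 (-0.92 ± 0.18, edgeR adjusted p = 0.00667), both also with any 1 library left out. Sparc had effects of 0.06 ± 0.07 for Tspan8 and -0.01 ± 0.07 for Lgr5 and passed in no comparison.

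At each level of the other marker, counts of genes past the test differed. Tspan8 was linked to 2 higher and 13 lower genes in Lgr5- cells (3.7% and 3.36% of all genes) and to 7 higher and 3 lower in Lgr5+ cells (7.27% and 2.17%). Lgr5 was linked to 2 higher and 15 lower genes in T8- cells (3.81% and 5.05%) and to 1 higher and 3 lower in T8hi cells (2.29% and 1.05%). The comparisons within Lgr5- and within T8- cells share the Lgr5-T8- libraries, so their values are not independent. The calls lower with Tspan8 in Lgr5- cells that held with any 1 library left out were Col4a1, Col4a2, Lama1 and Frem2, and the genes called higher in Lgr5+ cells were Lama2, Lamc3, Nid1, Nid2, Npnt, Egflam and Smoc2. Left-out libraries moved some of these counts by over 1.5 times: the 13 lower genes ranged from 5 (without either Lgr5-T8hi library) to 15, and the 8 positive interactions from 2 (without either Lgr5+T8hi library or Lgr5-T8hi replicate 2) to 11 (without Lgr5-T8- replicate 2).

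**Figure D5:**
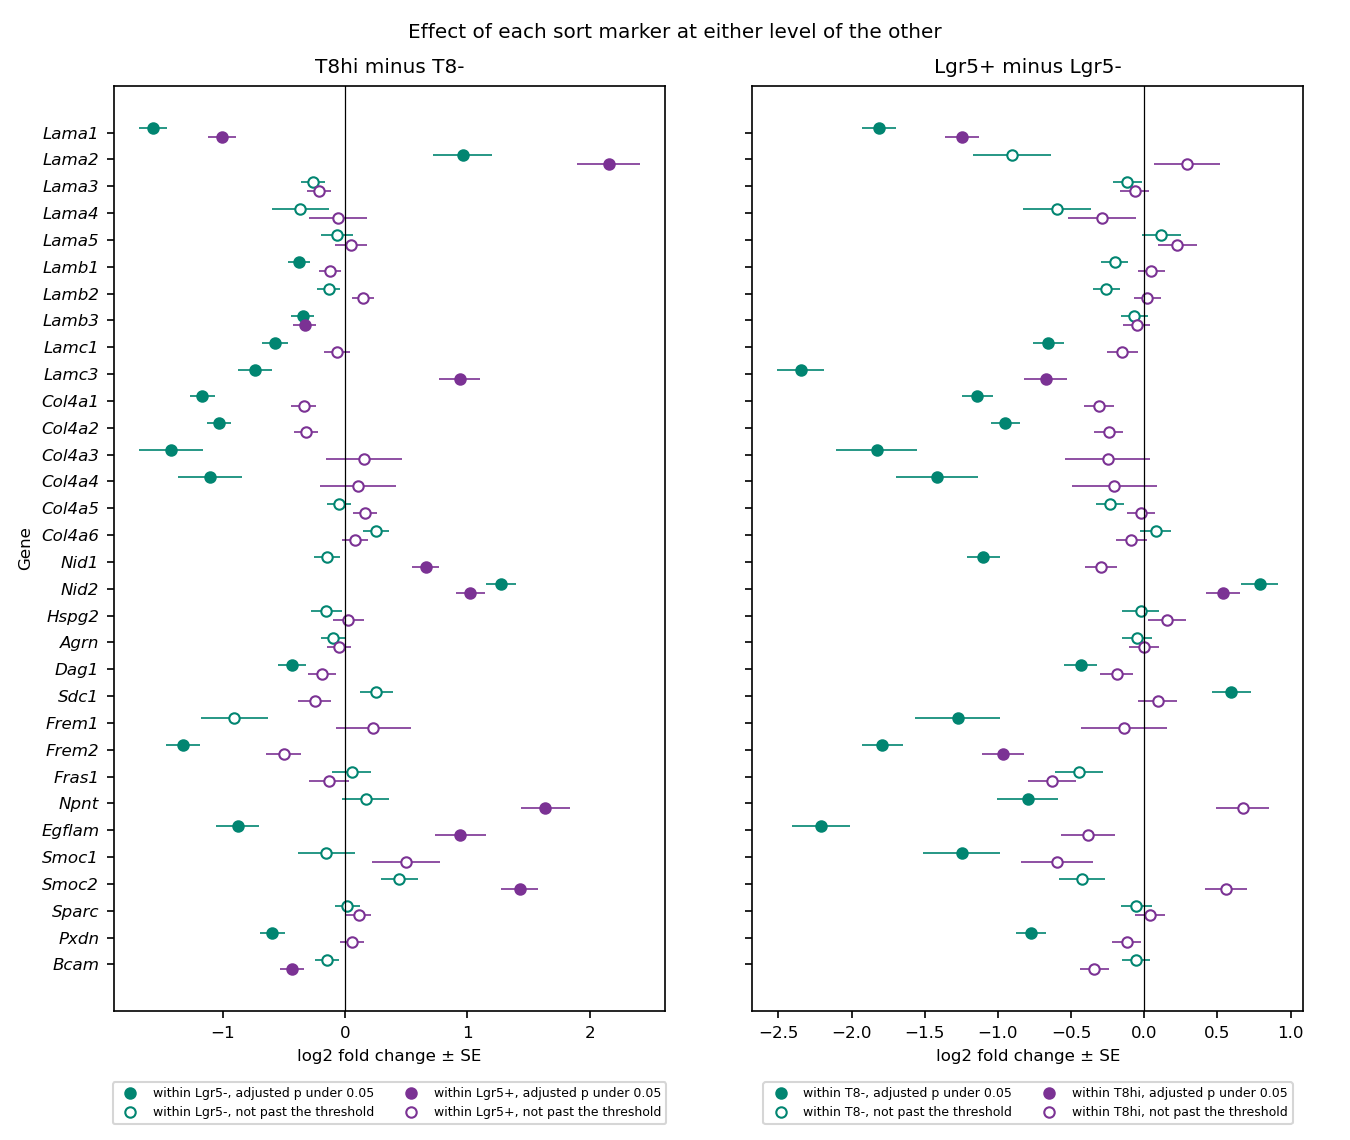
Points give log2 fold changes with standard errors for each gene, for Tspan8 in Lgr5- and Lgr5+ cells on the left and for Lgr5 in T8- and T8hi cells on the right, filled where the edgeR adjusted p is under 0.05. The points for Lgr5- and T8- cells lie further to the left for Col4a1 to Col4a4, Lamc3 and Egflam, and those of Lama5, Agrn, Hspg2 and Sparc lie near 0.

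Genes of the rest of the machinery were higher and lower. Of 18 tested genes for other basement membrane components, 5 were higher and 4 lower with Tspan8 and 8 higher and 4 lower with Lgr5, with medians of 0.02 and 0.21. These were 27.8% and 22.2% with Tspan8 and 44.4% and 22.2% with Lgr5, against the 9.13% and 5.52% and the 4.23% and 4.86% of all genes given above. Ntn1 and Ntn4, laminin-related netrins, were higher with Tspan8 by 1.56 ± 0.09 and 0.60 ± 0.07 and with Lgr5 by 0.72 ± 0.09 and 1.01 ± 0.07 (edgeR adjusted p between 1.69e-06 and 0.000408). Sparcl1, a relative of Sparc, and Hmcn2, which encodes hemicentin-2, were higher with Tspan8 by 1.20 ± 0.07 and 1.57 ± 0.14 (edgeR adjusted p = 1.99e-06 and 4.96e-05). Of 19 receptors and anchors, 2 were higher and 3 lower with Tspan8 and 2 higher and 4 lower with Lgr5, with medians of -0.11 and -0.01 (10.5% and 15.8%, and 10.5% and 21.1%). Sgce, which encodes epsilon-sarcoglycan, and Itga7, the alpha subunit of a laminin receptor, were higher with Tspan8 (1.56 ± 0.14 and 0.67 ± 0.09, edgeR adjusted p = 2.02e-05 and 0.000369). Itga1, the alpha subunit of a collagen IV receptor, was lower with both (-0.63 ± 0.08 and -0.56 ± 0.08), as was Itga8, the alpha subunit of the nephronectin receptor (-0.41 ± 0.07 and -0.63 ± 0.07, edgeR adjusted p between 0.000134 and 0.00154). Of 27 assembly enzymes, 3 were higher and 2 lower with Tspan8 and 2 higher and 3 lower with Lgr5, with medians of -0.01 and -0.01. The shares of 11.1% and 7.41% with Tspan8 were near those of all genes, and those with Lgr5 were 7.41% and 11.1%. Among single enzymes, the crosslinking enzymes Lox, Loxl1 and Loxl2 were higher with Tspan8 (1.30 ± 0.10, 1.51 ± 0.13 and 1.39 ± 0.17, edgeR adjusted p = 5.11e-06, 1.35e-05 and 0.000159), and the collagen galactosyltransferase gene Colgalt2 was lower (-0.64 ± 0.06, edgeR adjusted p = 2.77e-05). The median Tspan8 effect of 11 fibroblast markers was 1.49, and the part of other cell types in the enzyme differences was not tested.

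Most markers of other cell types, like Lama2, Nid2, Npnt and Smoc2, were higher with Tspan8. Fibroblast markers were higher with Tspan8 in 10 of 11 cases, pericyte markers in 6 of 7, endothelial markers in 7 of 12 and immune markers in 6 of 10, where 9.13% of all genes were higher. Luminal markers were higher in 11 of 14 cases and basal markers lower in 6 of 12. Of 7 Schwann cell markers 2 were higher. Of 6 tested adipocyte markers 3 were higher and 2 lower, namely Lep (-1.69 ± 0.20, edgeR adjusted p = 0.000165) and Plin4 (-0.50 ± 0.10, edgeR adjusted p = 0.00459). Positive interactions were called for 4 of 11 fibroblast, 2 of 7 pericyte, 3 of 12 endothelial, 4 of 10 immune and 2 of 6 adipocyte markers. They were called for 1 of 14 luminal, 0 of 12 basal and 0 of 7 Schwann cell markers, against 2.18% of all genes. Negative interactions were called for 0 markers in each list. The summed fibroblast level was 1036 to 1276 CPM in Lgr5+T8hi, 730.0 to 894 in Lgr5-T8hi, 334 to 359 in Lgr5+T8- and 565 to 731 in Lgr5-T8- cells. The summed pericyte level was 144 to 167, 126 to 144, 60.8 to 68.8 and 109 to 123 CPM in the same order, and the endothelial level was 537 to 618, 160 to 331, 108 to 153 and 202 to 221 CPM. The luminal level was 1456 to 1850, 1233 to 1685, 900 to 1510 and 781 to 977 CPM in that order. All of these fibroblast, pericyte, endothelial and immune markers had at least 1 count in each library, and the adipocyte markers Cidec and Adipoq were at 0 in at least 1 library each. The means of Lama2, Smoc2 and Npnt, like the fibroblast sum, were highest in Lgr5+T8hi and lowest in Lgr5+T8- cells. Lamb2, Lamc3, Col4a3, Col4a5, Nid1, Egflam and Smoc1 were lowest in Lgr5+T8- cells too, as were the fibroblast, pericyte and endothelial sums. The part of other cell types in the differences of all these genes was not tested. Nid2 was highest in Lgr5+T8hi too, and lowest in Lgr5-T8- cells, where the fibroblast sum was above that of Lgr5+T8- cells. The means of the fibroblast markers Lum, Dpt, Mfap5, Pi16 and Clec3b were also lowest in Lgr5-T8- cells. Those of the other fibroblast markers were lowest in Lgr5+T8- cells. In each batch the luminal sum fell in the same order of populations as Nid2. The part of other cell types in the Nid2 differences was not tested. Col4a1, Col4a2, Lama1, Lamc1, Frem2 and Pxdn were highest in Lgr5-T8- cells. The fibroblast, pericyte and endothelial sums were not highest there, but single markers were, namely 1 of 11 fibroblast markers (Dcn), 1 of 7 pericyte markers (Cspg4), 2 of 8 adipocyte markers (Lep and Plin4), 1 of 10 immune markers (Cd79a) and 0 of 12 endothelial markers. Of the basal markers, 7 of 12 were highest there, namely Trp63, Snai2, Acta2, Myh11, Cnn1, Mylk and Jag2. Krt5, Krt14 and Krt17 were lowest there, with means of 2153.5, 4127 and 2498 CPM, against at least 2298, 4571 and 2619 CPM elsewhere. Cdh3 and Oxtr were neither highest nor lowest there. Luminal and Schwann cell markers were highest there in 0 of 14 and 0 of 7 cases. The mean of Myh11 was 4136 CPM there, against 1850 to 2976 CPM in the other populations. The summed basal level was 22439 to 24084 CPM there, 21778 to 25134 in Lgr5+T8-, 16695 to 19830 in Lgr5+T8hi and 17296 to 19036 in Lgr5-T8hi cells. The mean of Dcn was 337 CPM in Lgr5-T8- and 105 to 221 CPM in the other populations, and that of Cspg4 was 18.8 CPM against 9.02 to 14.8 CPM. The part of other cell types in the Lgr5-T8- differences, and their relation to the basal markers, was not tested.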

How the data were processed

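The authors deposited 1 table of counts per library for 27164 genes, each with a gene length of no stated definition. Per the submitters' processing notes the tools were CASAVA 1.8.2, featureCounts, edgeR 3.10.2 and limma 3.24.14, with the mm10/GRCm38 build. The aligner and the use of strand are not given in the sources used here. Symbols came from RefSeq (25260 identifiers matched, and the rest took 2.56 to 2.86% of counts).

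Totals were 24571300 to 38384875 counts, with normalization factors of 0.935 to 1.07. Genes were kept with filterByExpr (minimum count 10, 16526 genes), scaled by TMM and tested with edgeR 4.0.16 in R 4.3.3, with population and batch as terms (3 residual degrees of freedom), two-sided, with Benjamini-Hochberg adjustment over all genes tested. The standard error is the log2 fold change divided by the root of F. CPM used the scaled total of all genes, RPKM divided CPM by the deposited length in kilobases, and within-batch differences used log2(CPM + 0.5).

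The labels give replicate numbers as batches. Deviations of same-numbered libraries from their population means correlated in all 6 pairs of populations (0.415 to 0.55), so batch was a block, and the common coefficient of variation was 0.0928 with it and 0.192 without. Replicates differed beyond sampling noise (chi-square per degree of freedom of 37.2 to 59).

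The genes and lists were chosen with earlier results of these data known. Library values are given for the members with the smallest adjusted p (up to 6 each for Tspan8, Lgr5 and the interaction), for laminin trimers and for collagen IV pairs. Those of Lama2, Lama4, Pxdn, Sdc1, Bcam, Fras1 and Smoc1 were added after they were seen. Other lists give up to 4 genes by adjusted p. From these lists 1 gene is not reported here. Alternatives were no block, RLE scaling, no count filter, a minimum of 1 CPM in 4 libraries, DESeq2 1.42.0, limma-voom (limma 3.58.1) and leaving out each library.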

Additional observations from a re-analysis of the deposited data

Results flagged for a closer look

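For 8 basement membrane genes the Tspan8 difference in Lgr5+ cells differed from that in Lgr5- cells by edgeR's test of the interaction, in each case with a positive sign. The sign was also positive for each called marker of other cell types, such as 4 of 11 fibroblast and 3 of 12 endothelial markers. The log2 differences of differences were 1.67 ± 0.22 for Lamc3 (edgeR adjusted p = 0.00239), 1.82 ± 0.27 for Egflam (0.00503), 0.83 ± 0.15 for Col4a1 (0.0126) and 1.47 ± 0.28 for Npnt (0.0179). They were 0.81 ± 0.16 for Nid1 (edgeR adjusted p = 0.0198), 0.71 ± 0.14 for Col4a2 (0.021), 0.98 ± 0.21 for Smoc2 (0.0337) and 0.65 ± 0.14 for Pxdn (0.0337).

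Lamc3 and Egflam passed with any 1 library left out. Smoc2 passed only without Lgr5+T8- replicate 1 or Lgr5-T8- replicate 1 (edgeR adjusted p between 0.0578 and 0.17 without any other library), and Pxdn only without either Lgr5-T8- library (0.0558 to 0.208). Without the batch block, 0 of the 8 passed (edgeR adjusted p between 0.125 and 1.0).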

How the results depend on the processing

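The 86 called values gave 1204 values over 14 alternatives, of which 969 kept their call, 235 fell short of the threshold and 0 changed sign. Without the replicate block, which the labels support as a batch, 32 calls stayed and 54 were lost. Members passing then numbered 4 lower for Tspan8, 0 higher and 6 lower for Lgr5, 0 for a positive interaction, 0 lower for Tspan8 in Lgr5+ cells, 1 higher and 4 lower for Tspan8 in Lgr5- cells, 0 and 0 for Lgr5 in T8hi cells, and 0 higher and 8 lower for Lgr5 in T8- cells. Over all genes, the fit without the block called 550 higher and 155 lower for Tspan8 (1509 and 912 with it), 89 and 130 for Lgr5 (699 and 803), and 1 and 0 for the interaction (361 and 60). It called 484 and 28 for Tspan8 in Lgr5+ cells (1201 and 359), 76 and 71 in Lgr5- cells (611 and 556), 0 and 0 for Lgr5 in T8hi cells (379 and 173) and 64 and 144 in T8- cells (630 and 834). Negative interactions over all genes numbered 91 with no count filter and 39 with the 1 CPM minimum. RLE scaling left 1 member higher with Lgr5, and the 1 CPM minimum left 1 higher with Lgr5 and 1 higher with Tspan8 in Lgr5- cells. DESeq2 gave 6 lower for Tspan8 in Lgr5+ cells and 5 lower for Lgr5 in T8hi cells, and limma-voom and no count filter each gave 2 higher for Lgr5 in T8hi cells.

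Leaving out 1 library, which leaves a population with 1 library assumed to vary like the rest, gave 4 to 6 higher and 4 to 12 lower members for Tspan8, 1 to 3 and 11 to 16 for Lgr5, and 2 to 11 and 0 to 1 for the interaction. It gave 6 to 7 and 1 to 6 for Tspan8 in Lgr5+ cells, 1 to 3 and 5 to 15 in Lgr5- cells, 0 to 3 and 1 to 5 for Lgr5 in T8hi cells, and 1 to 3 and 10 to 15 in T8- cells. Counts of Col4a3 and Col4a4 (21 to 128 per library) limit their precision, and 2 libraries per population limit all tests.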
